A study of Mus musculus with 9 samples.

Results

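The mitochondrial ribosomal protein genes are the nuclear genes whose symbols begin with Mrpl or Mrps followed by a digit. All rows of the deposited gene tables with such a symbol were taken, with no choice by level or response. They numbered 78 of 22322 genes listed: 51 encode proteins of the large subunit of the mitochondrial ribosome, 26 proteins of the small subunit, and 1, Mrps36, a protein now placed in the oxoglutarate dehydrogenase complex. Mrps18a and Mrps30 are named for the small subunit but sit in the large one, and were counted there. All 78 passed the filter on low counts.

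The series holds RNA-seq of mouse R1 embryonic stem cells, an established line labelled wild type, in 3 groups of 3 libraries. The groups were named by hairpin: sh-ctrl for the control, sh-Pfkp for the hairpin to Pfkp and sh-Lin41 for that to Lin41. Every culture was kept in suspension without LIF for 6 days, as embryoid bodies. Pfkp encodes a phosphofructokinase of glycolysis. Trim71, a stem cell gene of the TRIM-NHL family, encodes Lin41. The title of the series presents Pfkp as a kinase of Lin41 in stem cell differentiation, and each knockdown is set against sh-ctrl. One hairpin is named per gene and no rescue, so an effect of the hairpin or of its line cannot be told apart from that of the knockdown. Whether a group's libraries stem from separate cultures is not stated, and the p-values thus measure only spread among these libraries, which may be technical.

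The mitochondrial ribosome makes the few proteins that mitochondrial DNA encodes, all of them subunits of the respiratory chain and ATP synthase. Its RNAs come from mitochondrial DNA, whereas every protein of it is encoded in the nucleus, made in the cytosol, imported and assembled on those RNAs. Some of its proteins descend from bacterial ribosomal proteins and others were added in mitochondria. Mitochondrial activity is known to change as stem cells leave pluripotency.

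Total counts lay between 15495194 and 20607683 per library, and single members had 99 to 2852 counts in a library. Pfkp stood at 247 ± 1.83 CPM (counts scaled to library size with TMM, mean ± SD, n = 3) in sh-ctrl and at 103 ± 1.89 in sh-Pfkp, a log2 fold change of -1.27. Trim71 stood at 269 ± 4.72 CPM in sh-ctrl and 159.6 ± 4.89 in sh-Lin41, a log2 fold change of -0.75, and at 352 ± 6.77 in sh-Pfkp. All 10 stem cell markers examined averaged at least 1 CPM in each group, and 1 of 5 mesendoderm, 4 of 5 neuroectoderm and 1 of 4 cardiomyocyte markers did in sh-ctrl. Of 8 stromal markers, 3 did so in sh-ctrl, 6 in sh-Pfkp and 3 in sh-Lin41, and Dcn and Lum were at 0 in sh-ctrl.

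As a module, these genes were abundant and little spread between groups. Levels between genes are compared in the deposited FPKM, which divide by length. The median member had a mean FPKM of 27.7 over the 9 libraries, against 8.52 for all genes tested, and 71 of the 78 lay between 10 and 70. The median was 28.0 for the large subunit and 29.1 for the small subunit. Mrpl42, a protein added in mitochondria, was the highest, at 184 ± 5.70 FPKM in sh-ctrl, 181 ± 3.22 in sh-Pfkp and 177 ± 6.28 in sh-Lin41 (mean ± SD, n = 3). Mrpl18, the next in order, was at 87.3 ± 3.47 in sh-ctrl, well outside the spread of either gene. After Mrpl18 came Mrps5, Mrpl37 and Mrpl30, with means over all libraries of 67.7, 67.1 and 66.5 FPKM, an order that changed between the groups. The lowest were Mrpl57, Mrps26, Mrpl19, Mrps16 and Mrpl47, from 4.04 to 9.03 FPKM. Mrpl57 lay under Mrps26 in each group by about the SD of Mrps26, and the order of Mrpl19 and Mrps16 changed between groups. The highest mean was 44.7 times the lowest.

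**Figure D1:**
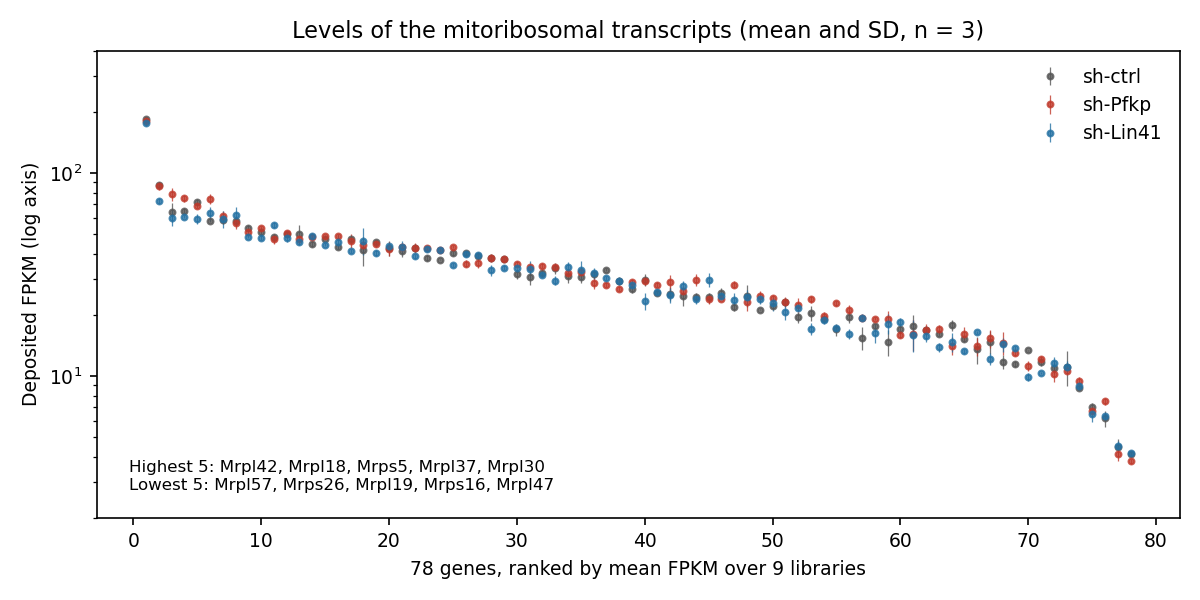
Deposited FPKM (log axis) of the 78 genes, ranked from highest to lowest mean over 9 libraries. Points are group means and bars SD (n = 3). Mrpl42 stands apart at the top, and for most genes the 3 hairpin groups lie close together.

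Exons of 33 members overlap another gene in GENCODE M21, and since the strand setting is not given in the sources used here, reads there cannot be told apart. In 9 members over 20% of exon bases are shared with 1 other gene, and their values are uncertain: Mrpl19, Mrpl24, Mrpl43, Mrpl53, Mrps18b, Mrps18c, Mrps25, Mrps27 and Mrps34. Mrps25 shares 69.8% with Nr2c2, and Mrpl43 33.4% with Twnk. Pseudogenes carrying Mrp names number 5 in that annotation, and how the counting treated them is not given.

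In sh-Pfkp, more of these genes rose than fell, each by a small amount. Against sh-ctrl, 33 of the 78 were called higher, or 42.3%, where 28.3% of all 13158 genes tested were called higher. There were 3 called lower, or 3.85%, where 28.3% of all genes were. The median log2 fold change of the members was 0.10, against -0.005 for all genes, and the members ran from -0.29 to 0.47. The median absolute log2 fold change was 0.11 for the members and 0.21 for all genes. The split was 34 higher and 3 lower with RLE scaling, 28 and 4 with upper quartile scaling, 25 and 4 with total count scaling, and 23 and 6 with limma-trend on FPKM. Over all genes these last 3 settings gave 3141 and 4360, 3018 and 4477, and 2507 and 3802, against 3721 and 3730 as reported. In bulk RNA, a change in the share of cells that hold a transcript and a change in its amount per cell cannot be told apart. The summed stromal markers were at 27.9 to 30.4 CPM in sh-Pfkp against 13.3 to 14.4 in sh-ctrl. Of the 7 tested, 5 were called higher and 2 lower, and the sum joins both. Their log2 fold changes ran from -1.68 to 7.95, with a median of 6.84. The summed stem cell markers were at 4818 to 4879 CPM in sh-Pfkp and 5190.1 to 5266 in sh-ctrl, with 4 of 10 called higher and 6 lower. The summed neuroectoderm markers were at 115 to 123 CPM in sh-Pfkp and 97.5 to 100.1 in sh-ctrl, with 3 of the 4 tested called higher and 1 lower. The part of these markers in the members' shifts was not tested.

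Genes of both subunits were called higher more often than lower. Among the large-subunit genes 21 of 51 were called higher and 2 lower, with a median log2 fold change of 0.09. Among the small-subunit genes 12 of 26 were called higher and 1 lower, with a median of 0.15. For a split by descent, Mrps18a and Mrps18b, the extra relatives of S18, were counted with the proteins added in mitochondria. By that split, 11 of the 30 large-subunit proteins with a bacterial homologue rose and 1 fell, and 10 of the 21 added in mitochondria rose and 1 fell. In the small subunit 7 of 16 bacterial homologues rose and none fell, and 5 of 10 added proteins rose and 1 fell. No test of these splits against each other was made.

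**Figure D2:**
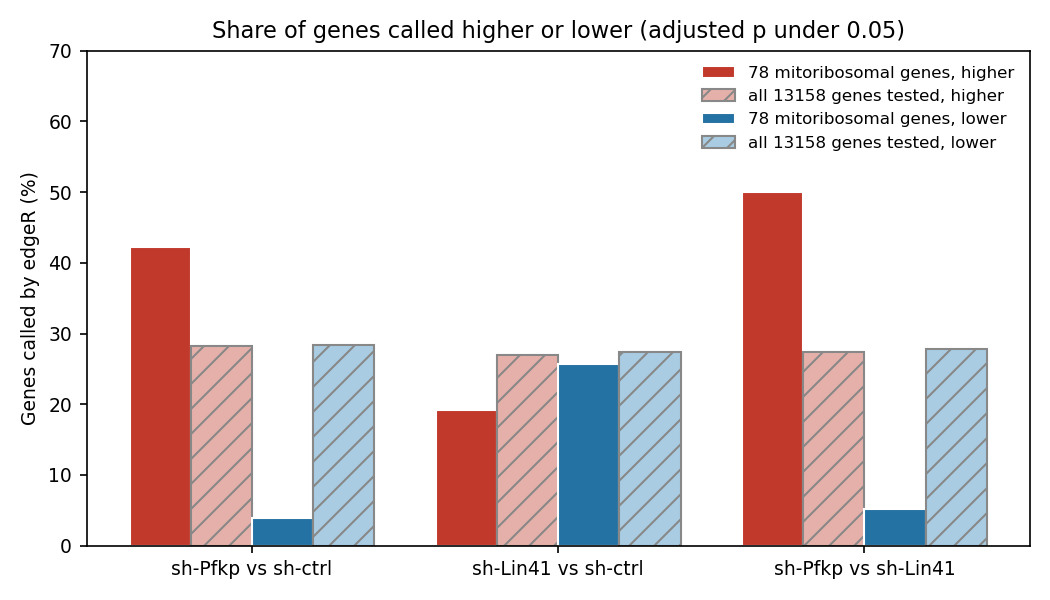
Percentage of genes called higher or lower by edgeR (adjusted p under 0.05) in 3 comparisons, for the 78 mitochondrial ribosomal protein genes (solid) and all 13158 genes tested (hatched). In both comparisons that hold sh-Pfkp the solid bars for higher, 33 and 39 genes, are taller than the hatched ones, and those for lower, 3 and 4 genes, are shorter. Against sh-ctrl, the sh-Lin41 shares of members, 19.2% and 25.6%, are each under those of all genes.

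Summed over all members, the counts were 0.337 to 0.339% of each sh-Pfkp library and 0.320 to 0.326% of each sh-ctrl library. The same sum in CPM was 3196 ± 26.2 in sh-ctrl, 3457 ± 19.9 in sh-Pfkp and 3155 ± 35.3 in sh-Lin41 (mean ± SD, n = 3). The ratio to sh-ctrl was 1.08 in sh-Pfkp, made of 1.06 for the large and 1.13 for the small subunit. In summed FPKM the ratios were 1.04 for all members, 1.02 for the large and 1.09 for the small subunit.

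**Figure D3:**
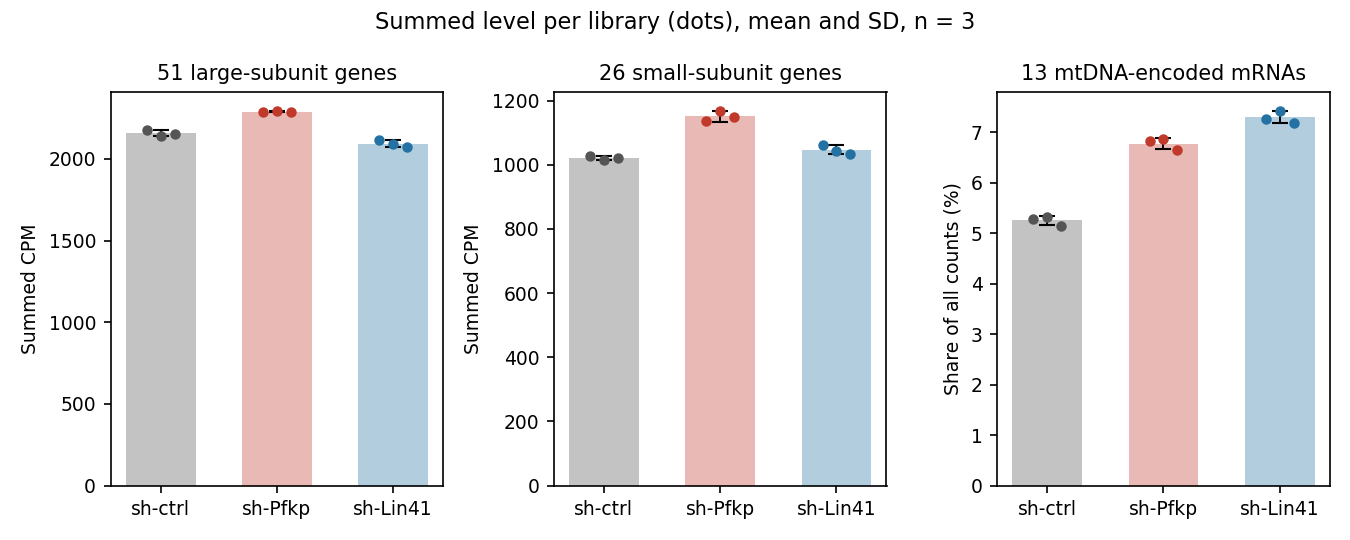
Summed CPM of the 51 large- and 26 small-subunit genes, and the share of all counts from 13 mRNAs of mitochondrial DNA, per library (dots) with mean and SD (bars, n = 3). The sh-Pfkp libraries are above both other groups in the first 2 panels, and the 2 knockdowns are both above sh-ctrl in the third.

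The largest rise in sh-Pfkp was that of Mrps7, a protein of the head of the small subunit descended from bacterial S7. Its levels were 33.4, 30.5 and 34.8 CPM in sh-ctrl, 44.2, 46.7 and 46.3 in sh-Pfkp and 33.6, 33.7 and 32.9 in sh-Lin41. The sh-Pfkp libraries were all above the others, which overlapped each other, and the log2 fold change was 0.47 (SE 0.0517, adjusted p = 3.17e-09) in edgeR's quasi-likelihood test. Mrps22 is a small-subunit protein added in mitochondria. It was at 26.5, 26.8 and 24.5 CPM in sh-ctrl, 35.9, 34.3 and 33.3 in sh-Pfkp and 29.6, 29.1 and 25.8 in sh-Lin41, so that sh-Pfkp again lay above both other groups. Its log2 fold change was 0.42 (SE 0.0607, adjusted p = 7.18e-07).

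Mrpl58 is a peptidyl-tRNA hydrolase built into the large subunit, related to bacterial release factors. It was at 13.8, 12.3 and 14.9 CPM in sh-ctrl, 19.0, 18.6 and 19.4 in sh-Pfkp and 17.7, 15.1 and 15.4 in sh-Lin41, with a log2 fold change in sh-Pfkp of 0.46 (SE 0.0843, adjusted p = 2.32e-05). No sh-Pfkp library overlapped sh-ctrl. Mrps18b, one of 3 relatives of bacterial S18 in the mitochondrial ribosome, was at 59.8, 61.7 and 60.6 CPM in sh-ctrl, 76.0, 83.1 and 79.1 in sh-Pfkp and 71.1, 65.7 and 61.2 in sh-Lin41, and its log2 fold change was 0.39 (SE 0.0454, adjusted p = 1.12e-08). Its paralog Mrps18a changed by 0.20 (SE 0.0621, adjusted p = 0.00659) and Mrps18c had a log2 fold change of 0.13 (SE 0.0792, adjusted p = 0.15), which did not pass the test.

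The other 6 genes named by size of rise were Mrpl33, Mrpl27, Mrps11, Mrpl19, Mrps23 and Mrpl32. They had log2 fold changes of 0.37, 0.36, 0.33, 0.33, 0.28 and 0.27, with groups that did not overlap. Mrpl33 and Mrpl27 are proteins of bacterial type, and Mrpl32 is known to be cut to its mature form by the m-AAA protease of the inner membrane. The call of Mrpl27 was lost without sh-Pfkp replicate 3 (adjusted p = 0.0588), and that of Mrps23 under limma-trend on FPKM (adjusted p = 0.588).

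The 3 genes that fell in sh-Pfkp were Mrpl23, Mrps27 and Mrpl43. Mrps27, a small-subunit protein of the pentatricopeptide-repeat kind, was at 55.6, 57.4 and 57.7 CPM in sh-ctrl, 47.7, 51.2 and 48.5 in sh-Pfkp and 51.6, 53.8 and 52.4 in sh-Lin41, and both knockdowns lay under every sh-ctrl library. Its log2 fold change in sh-Pfkp was -0.21 (SE 0.0433, adjusted p = 0.000118). Mrpl23, at the exit of the peptide tunnel, changed by -0.29 (SE 0.104, adjusted p = 0.0181). That call was lost without sh-ctrl replicate 1 or 2 (adjusted p = 0.0853 and 0.0542) or sh-Pfkp replicate 1 (0.133). Mrpl43 changed by -0.12 (SE 0.0444, adjusted p = 0.0204), and its call was lost without sh-ctrl replicate 1 (adjusted p = 0.121) or sh-Pfkp replicate 1 or 2 (0.11 and 0.073).

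**Figure D4:**
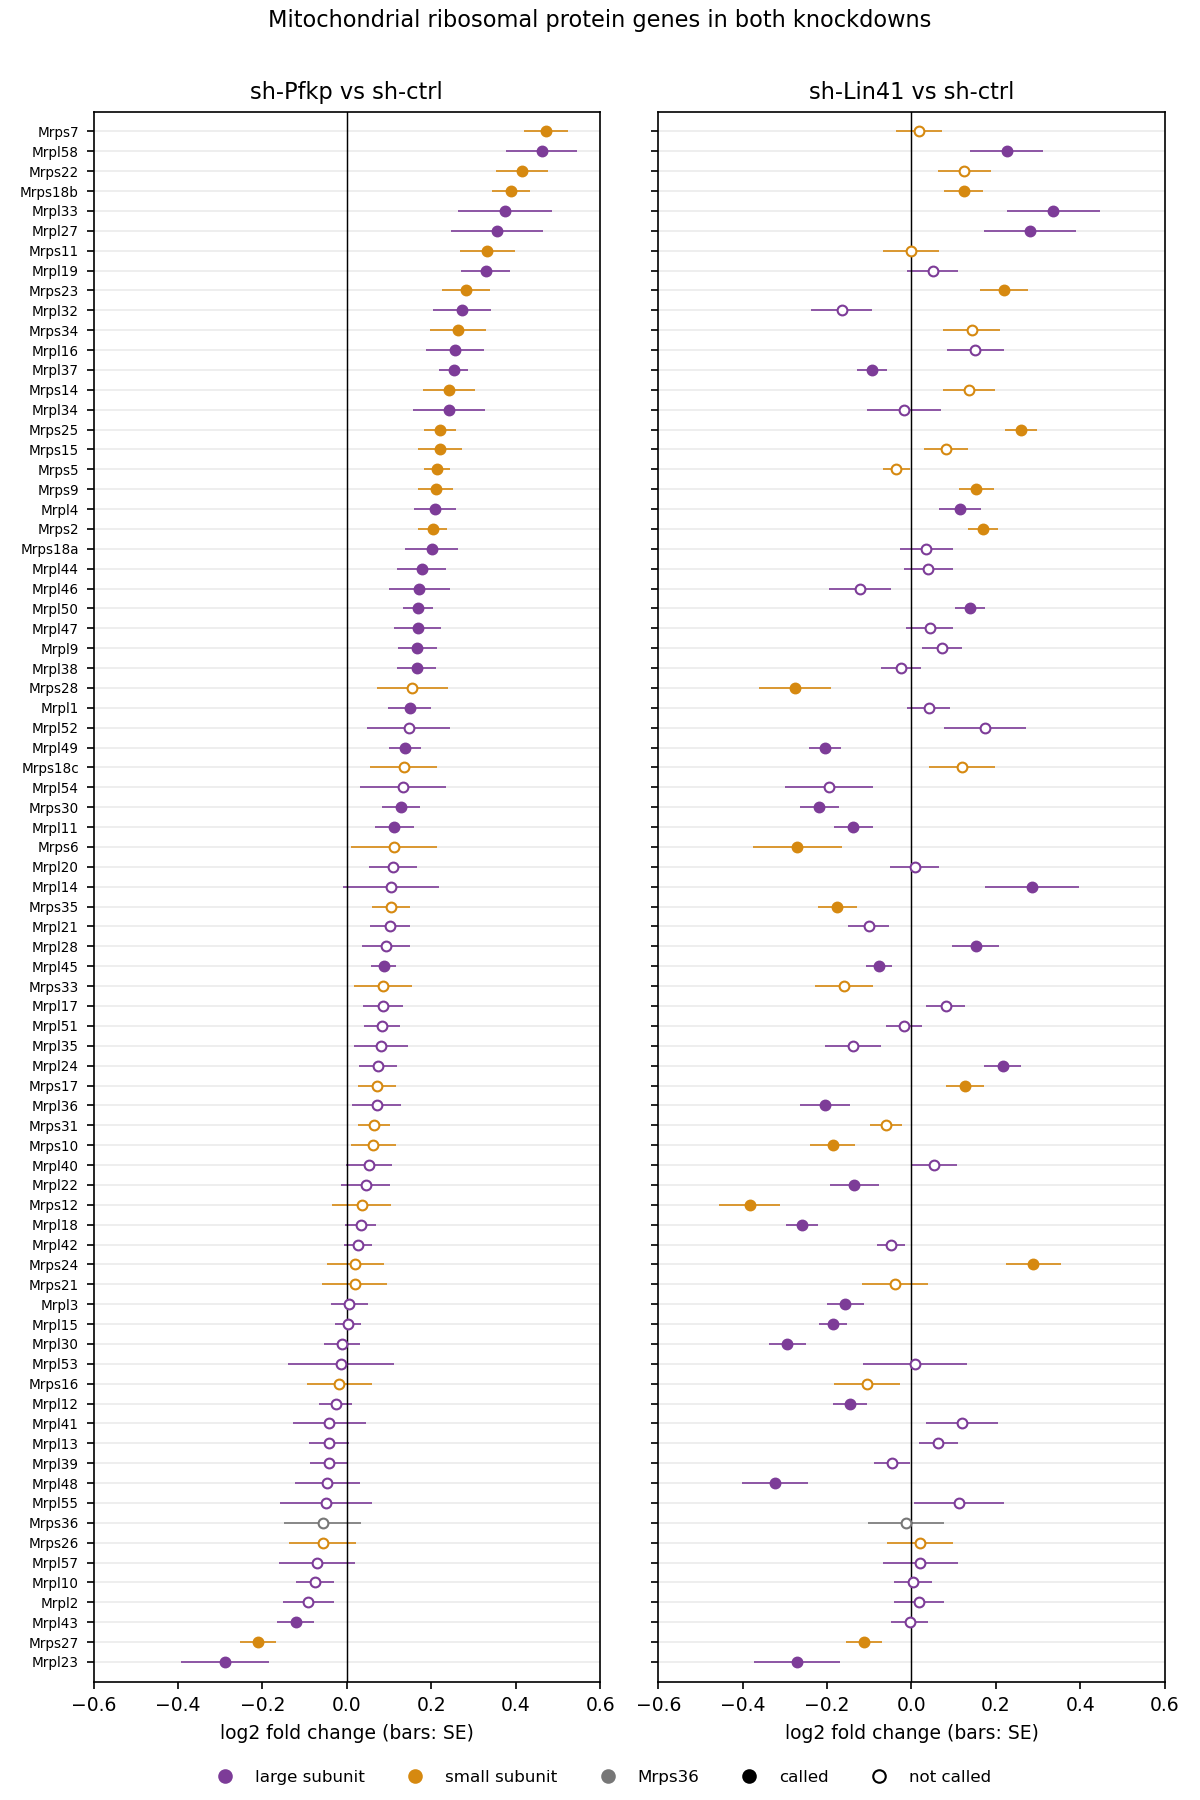
Log2 fold changes (points) with SE (bars) of all 78 genes, in sh-Pfkp (left) and sh-Lin41 (right) against sh-ctrl, in the order of the left panel. Filled points passed the test, and colours give the subunit. Most left-hand points are above 0, with Mrps7 highest at 0.47 and Mrpl23 lowest at -0.29, and the right-hand points are spread to both sides.

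In sh-Lin41, these genes moved in both directions. Against sh-ctrl 15 were called higher, or 19.2%, where 26.9% of all genes were, and 20 called lower, or 25.6%, where 27.3% were. The median log2 fold change was 0.01 and the range -0.38 to 0.34. In the large subunit 8 of 51 rose and 14 fell, and in the small subunit 7 of 26 rose and 6 fell. The summed CPM ratio to sh-ctrl was 0.987. DESeq2 called 7 higher and 13 lower. The number called higher was 9 without sh-ctrl replicate 2 or without sh-Lin41 replicate 1. The summed stem cell markers were at 6079 to 6107 CPM in sh-Lin41 against 5190.1 to 5266 in sh-ctrl, with 7 of 10 called higher and 2 lower. The summed mesendoderm markers were at 9.91 to 10.6 CPM against 14.7 to 16.2 in sh-ctrl, and at 11.3 to 11.6 in sh-Pfkp. Only 1 of the 5, Eomes, was tested, and it was called lower in both knockdowns. The part of the stem cell or mesendoderm markers in the members' changes was not tested.

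Mrps12 fell most in sh-Lin41. It lies at the decoding centre of the small subunit and is the counterpart of the bacterial protein in which streptomycin resistance mutations arise. Its levels were 26.3, 23.1 and 23.9 CPM in sh-ctrl, 24.5, 24.6 and 26.2 in sh-Pfkp and 20.3, 16.8 and 19.2 in sh-Lin41. Every sh-Lin41 library was under every other library, and the log2 fold change was -0.38 (SE 0.0725, adjusted p = 4.05e-05).

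Among large-subunit genes, Mrpl48, at the central protuberance, was at 17.1, 17.2 and 16.4 CPM in sh-ctrl, 16.8, 15.6 and 16.6 in sh-Pfkp and 13.4, 13.8 and 13.3 in sh-Lin41. Mrpl30, of bacterial type, was at 56.2, 55.9 and 54.9 CPM in sh-ctrl, 53.4, 57.0 and 55.2 in sh-Pfkp and 47.3, 45.3 and 43.4 in sh-Lin41. In both genes the sh-Lin41 libraries were all below the rest, with log2 fold changes of -0.32 (SE 0.0782, adjusted p = 0.000811) and -0.29 (SE 0.0443, adjusted p = 1.23e-06).

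Mrpl18, of bacterial type and at the central protuberance, was at 101, 105 and 109 CPM in sh-ctrl, 107, 113 and 102 in sh-Pfkp and 88.5, 90.6 and 84.5 in sh-Lin41. It too was lower in every sh-Lin41 library than in any other, with a log2 fold change of -0.26 (SE 0.0382, adjusted p = 8.06e-07). Mrps28, Mrps30, Mrpl49, Mrpl36, Mrps10 and Mrpl15 made up the rest of the 10 largest falls among genes whose groups did not overlap, with log2 fold changes of -0.28, -0.22, -0.20, -0.20, -0.19 and -0.19. Mrpl23 and Mrps6, called lower with -0.27 and -0.27, had libraries that overlapped sh-ctrl. Of those 6 genes with no overlap, only Mrps28 lost its call by leaving out a library, sh-ctrl replicate 2 (adjusted p = 0.0553).

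Of the genes higher in sh-Lin41, Mrps24 is the relative of bacterial S3. It was at 24.7, 22.4 and 24.8 CPM in sh-ctrl, 23.2, 24.0 and 25.9 in sh-Pfkp and 31.5, 27.4 and 29.2 in sh-Lin41, above every other library in sh-Lin41, and its log2 fold change was 0.29 (SE 0.0650, adjusted p = 0.000358). Mrps25, added in mitochondria, was at 70.9, 66.4 and 69.2 CPM in sh-ctrl, 77.96, 82.4 and 80.7 in sh-Pfkp and 81.7, 80.9 and 85.0 in sh-Lin41. Both knockdowns were above sh-ctrl in this gene, by 0.22 in sh-Pfkp and 0.26 (SE 0.0378, adjusted p = 6.69e-07) in sh-Lin41. Mrpl24, at the tunnel exit, rose by 0.22 (SE 0.0439, adjusted p = 0.000102), and Mrps23, Mrps2 and Mrps9 by 0.22, 0.17 and 0.15.

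The remaining 4 of the 10 largest rises lost their calls when single libraries were left out. Mrpl33 changed by 0.34 in log2 and was not called without sh-ctrl replicate 2 (adjusted p = 0.0609). Mrpl14 changed by 0.29 and was not called without sh-ctrl replicate 3 (adjusted p = 0.262) or without any 1 of the sh-Lin41 libraries (0.0594 to 0.0694). For Mrpl27 the value was 0.28, and the call was lost without sh-ctrl replicate 1 or 2 (adjusted p = 0.119 and 0.0818) or sh-Lin41 replicate 1 or 3 (0.101 and 0.0859). For Mrpl58 it was 0.23, and the call was lost without sh-ctrl replicate 1 or 2 (adjusted p = 0.0552 and 0.159) or sh-Lin41 replicate 1 (0.188).

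**Figure D5:**
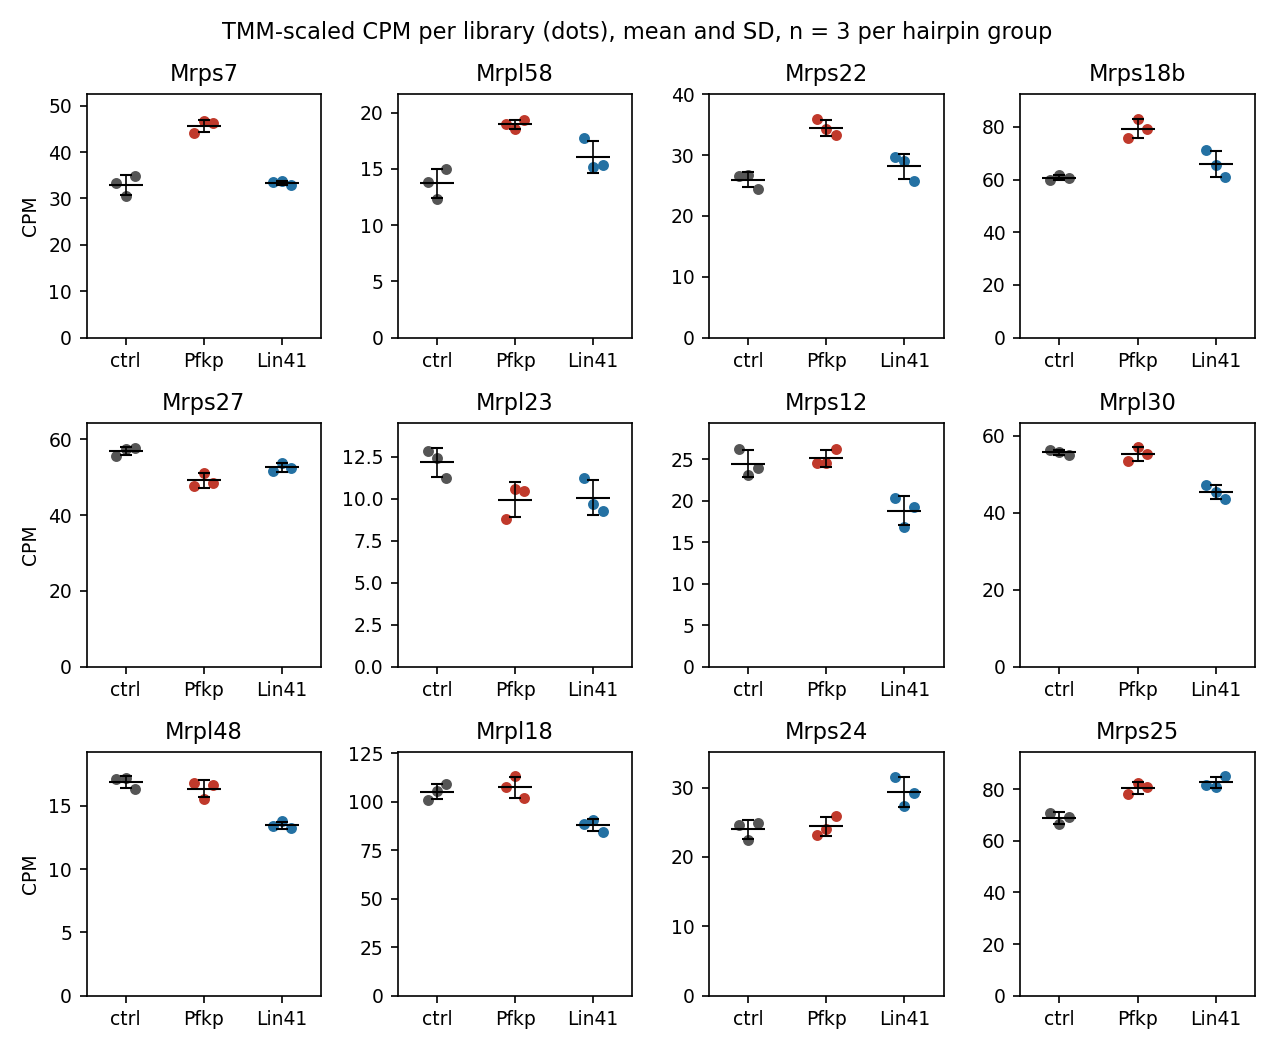
CPM of 12 members in each library (dots), with group mean and SD (bars, n = 3) and axes from 0. Mrps7, Mrps22 and Mrps18b are highest in sh-Pfkp, Mrps12, Mrpl30, Mrpl48 and Mrpl18 are lowest in sh-Lin41, and Mrps25 is higher in both knockdowns than in sh-ctrl.

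The comparisons with sh-ctrl share the 3 control libraries, so their values are given side by side. Called higher in both were 10 genes, Mrpl27, Mrpl33, Mrpl4, Mrpl50, Mrpl58, Mrps18b, Mrps2, Mrps23, Mrps25 and Mrps9. Called higher in sh-Pfkp and lower in sh-Lin41 were 5, Mrpl11, Mrpl37, Mrpl45, Mrpl49 and Mrps30. Mrpl23 and Mrps27 were called lower in both. In 24 genes neither knockdown gave a call. Over all genes tested, 14.7% were called higher in both, 14.4% lower in both, 3.88% higher in sh-Pfkp and lower in sh-Lin41, and 25.2% in neither. The members' shares for these 4 patterns were 12.8%, 2.56%, 6.41% and 30.8%. Both calls held whichever library was left out for Mrpl50, Mrps2, Mrps23, Mrps25 and Mrps9 among the first 10 genes and for Mrpl49 among the next 5. With limma-trend on FPKM both calls of Mrps23 were lost (adjusted p = 0.588 in sh-Pfkp and 0.33 in sh-Lin41). In sh-Lin41 the call of Mrps18b was lost without sh-ctrl replicate 1 or 3 (adjusted p = 0.0875 and 0.0598) or sh-Lin41 replicate 1 or 2 (0.237 and 0.0505), and that of Mrpl37 without sh-ctrl replicate 3 (0.148) or sh-Lin41 replicate 1 or 3 (0.0622 and 0.0941). The fall of Mrpl23 there was lost without sh-ctrl replicate 1 or 2 (adjusted p = 0.103 and 0.0661) or sh-Lin41 replicate 2 or 3 (0.0854 and 0.117). That of Mrps27 was lost without sh-ctrl replicate 2 or 3 (adjusted p = 0.0593 and 0.0883) or sh-Lin41 replicate 1 or 3 (0.0928 and 0.0607). In sh-Pfkp the call of Mrps30 was lost without sh-ctrl replicate 1 (adjusted p = 0.0605) or sh-Pfkp replicate 1 (0.103). It was also lost with upper quartile and total count scaling (0.0929 and 0.13), limma-trend on FPKM (0.224) and DESeq2 (0.0619). Mrpl49, added in mitochondria, was at 68.6, 67.7 and 71.1 CPM in sh-ctrl, 76.1, 76.8 and 75.5 in sh-Pfkp and 61.6, 59.4 and 59.0 in sh-Lin41, and the 3 groups did not overlap.

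The knockdowns were also set against each other, in the same fit of all 9 libraries. There 39 members were called higher with the Pfkp hairpin than with the Lin41 hairpin, where 27.4% of all genes were. Called lower were 4 members, where 27.8% of all genes were. The median log2 difference was 0.11. The split was 33 higher and 8 lower with upper quartile scaling, 32 and 8 with total count scaling, and 29 and 7 with limma-trend on FPKM. Over all genes those settings gave 3042 and 4244, 2939 and 4387, and 2409 and 3490, against 3603 and 3652 as reported. The largest differences were Mrps7 with 0.45, Mrpl32 with 0.44, Mrps28 with 0.43, Mrps12 with 0.42, Mrps6 with 0.38 and Mrpl37 with 0.35. Mrpl32 was at 22.9, 21.9 and 21.5 CPM in sh-ctrl, 26.4, 26.2 and 27.6 in sh-Pfkp and 21.8, 19.6 and 17.6 in sh-Lin41, with sh-Pfkp above all other libraries. Of the 4 lower genes Mrps24 changed by -0.27 (SE 0.0639, adjusted p = 0.000619). Mrpl24, with -0.14, lost its call without sh-Pfkp replicate 2 (adjusted p = 0.0654) or sh-Lin41 replicate 3 (0.0583), and Mrpl43, with -0.12, without sh-Pfkp replicate 1 or 2 (0.117 and 0.0901) or sh-Lin41 replicate 1 or 3 (0.111 and 0.079). Mrpl13, with -0.11, lost its call in 14 of 20 other settings.

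By place in the ribosome, the stalk that recruits translation factors showed 1 gene higher and none lower of 4 in sh-Pfkp, and none higher and 2 lower in sh-Lin41. Mrpl12, a stalk protein also known to bind the mitochondrial RNA polymerase, had log2 fold changes of -0.03 in sh-Pfkp, not called, and -0.15 (SE 0.0393, adjusted p = 0.00228) in sh-Lin41. Mrpl11 had 0.11 in sh-Pfkp, a call lost without sh-ctrl replicate 2 or 3 or sh-Pfkp replicate 2 (adjusted p from 0.1 to 0.228). That call was also lost with upper quartile scaling (0.185), total count scaling (0.243) and DESeq2 (0.115). With limma-trend on FPKM the change was 0.0067 (adjusted p = 0.921). In sh-Lin41 the -0.14 of Mrpl11 was not called without sh-ctrl replicate 1 or sh-Lin41 replicate 2 or 3 (adjusted p from 0.0506 to 0.106), nor with DESeq2 (0.0527). Mrpl10 and Mrpl53 passed neither test. Around the tunnel exit 3 of 6 rose and 1 fell in sh-Pfkp, and 1 rose and 3 fell in sh-Lin41. The 3 that rose in sh-Pfkp were Mrpl44, Mrpl45 and Mrpl47. There Mrpl44 had 0.18 (SE 0.0579, adjusted p = 0.00979) and Mrpl47 0.17 (SE 0.0558, adjusted p = 0.0111). Neither was called with total count scaling (adjusted p = 0.0574 and 0.0662) or limma-trend on FPKM (0.0815 and 0.107). Mrpl44 lost its call without sh-Pfkp replicate 2 (adjusted p = 0.0573). Mrpl47 lost its own without sh-Pfkp replicate 1 (adjusted p = 0.0631) or with DESeq2 (0.0565). Mrpl45, which is known to anchor the ribosome to the inner membrane, had 0.09 (SE 0.0302, adjusted p = 0.0146) in sh-Pfkp and -0.08 in sh-Lin41, a call lost without sh-ctrl replicate 1 or 3 (adjusted p = 0.0734 and 0.105) or sh-Lin41 replicate 3 (0.113). The first of these was not called with upper quartile or total count scaling (adjusted p = 0.18 and 0.277) or limma-trend on FPKM (0.244). Mrpl22, with -0.14 (SE 0.0583, adjusted p = 0.0495) in sh-Lin41, was not called in 14 of 20 other settings. In the central protuberance 5 of 8 rose and none fell in sh-Pfkp, and 2 rose and 3 fell in sh-Lin41. Of all 78 members, 42.3% were called higher and 3.85% lower in sh-Pfkp, and 19.2% and 25.6% in sh-Lin41. Of all genes tested, 28.3% were called in each direction in sh-Pfkp, and 26.9% and 27.3% in sh-Lin41. These small sets were not tested against those shares. Mrps36, outside the ribosome, had -0.06 and -0.01, neither of them called.

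Promoters were examined because 33 members were called higher in sh-Pfkp, and because NRF1, ETS factors of the GABP kind and YY1 are known regulators of genes for mitochondria. RefSeq (GRCm38.p6) had promoter windows, from 250 bases before to 50 after the start, for 69 of the 78 genes. The letters CCGGAAG, the ETS motif, were found on either strand in 37.7% of these genes, in 19.7% of genes tested and in 9.93% of all genes with a window. GCATGCGC, the NRF1 motif, was in 11.6% of members, 6.11% of genes tested and 3.05% of all genes, and AAGATGGC, the YY1 motif, in 17.4%, 5.17% and 3.19%. The 3 motifs were counted without regard to overlap with each other. None of the 3 was in the windows of 31 members. The 110 bases directly before the start are shown for the 3 largest rises in sh-Pfkp, Mrps7, Mrpl58 and Mrps22, and for the 2 largest falls, Mrpl23 and Mrps27, whether or not they hold a motif. Mrpl32 was added because it holds NRF1 letters 4 times, 2 of them overlapping. Capitals mark matches to any of the 3 motifs. Mrps7 and Mrpl23 hold none in these bases, and Mrpl58, Mrps22 and Mrps27 hold ETS letters once each.
Mrps7: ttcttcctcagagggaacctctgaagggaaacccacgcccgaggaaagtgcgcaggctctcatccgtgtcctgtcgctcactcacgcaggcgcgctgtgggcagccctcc
Mrpl58: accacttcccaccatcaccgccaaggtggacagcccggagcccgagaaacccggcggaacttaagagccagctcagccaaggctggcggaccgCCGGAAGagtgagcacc
Mrps22: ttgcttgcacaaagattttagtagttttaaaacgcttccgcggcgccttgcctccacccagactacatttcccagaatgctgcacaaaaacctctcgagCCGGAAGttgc
Mrpl23: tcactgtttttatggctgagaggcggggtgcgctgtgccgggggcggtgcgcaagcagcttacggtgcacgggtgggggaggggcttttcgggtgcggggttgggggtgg
Mrps27: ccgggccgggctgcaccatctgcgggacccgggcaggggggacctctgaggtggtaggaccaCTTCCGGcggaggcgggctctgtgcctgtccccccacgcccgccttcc
Mrpl32: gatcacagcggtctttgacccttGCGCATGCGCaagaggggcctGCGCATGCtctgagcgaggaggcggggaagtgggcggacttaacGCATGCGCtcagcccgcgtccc
They lie, in that order, at chr11:115604030-115604139 (plus strand), chr11:115403642-115403751 (plus strand), chr9:98601680-98601789 (minus strand), chr7:142532922-142533031 (plus strand), chr13:99344676-99344785 (plus strand) and chr13:14613038-14613147 (minus strand), and are written 5′ to 3′ toward the start. Of the 26 members with ETS letters 8 were called higher and 2 lower in sh-Pfkp, and 5 higher and 6 lower in sh-Lin41. Of the 43 without them 21 were called higher and 1 lower in sh-Pfkp, and 9 and 11 in sh-Lin41. Of the 12 with YY1 letters 6 were called higher and 1 lower in sh-Pfkp, and 1 higher and 5 lower in sh-Lin41. The 57 without them gave 23 and 2 in sh-Pfkp, and 13 and 12 in sh-Lin41. The 8 with NRF1 letters gave 4 and 0 in sh-Pfkp and 2 and 1 in sh-Lin41, and the 61 without gave 25 and 3, and 12 and 16. Set beside these counts, 28.3% of all genes tested were called in each direction in sh-Pfkp. In sh-Lin41 26.9% of all genes were called higher and 27.3% lower. Members with and without a motif were not tested against those shares or against each other. A match describes letters in the window and shows no binding.

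The genes of these factors were measured too. Of 11 nuclear regulators of mitochondrial genes tested, 6 were called higher and 4 lower in sh-Pfkp, and 5 higher and 4 lower in sh-Lin41. That is 54.5% and 36.4% in sh-Pfkp, where 28.3% of all genes were called in each direction, and 45.5% and 36.4% in sh-Lin41, where 26.9% and 27.3% were. Nrf1 had log2 fold changes of 0.35 (SE 0.0412, adjusted p = 1.24e-08) in sh-Pfkp and 0.10 in sh-Lin41, Yy1 of 0.36 and 0.43, and Gabpb1, a GABP subunit, of -0.17 and -0.24. Mycn, a growth regulator, had 0.92 (SE 0.0321, adjusted p = 2.46e-21) in sh-Pfkp and 0.27 in sh-Lin41.

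Of the 69 members with a promoter window, 26 had a gene starting on the other strand, in the opposite direction, within 1000 bases. That is 37.7%, against 18.8% of genes tested and 12.3% of all genes with a window. The distances ran from 8 to 935 bases, with a median of 131. In 23 of the 25 distinct pairs both genes were tested, and in sh-Pfkp both were called in 7, with the same sign in 4. In sh-Lin41 both were called in 6, with the same sign in 3. Called or not, the signs were the same in 14 of the 23 in sh-Pfkp and in 17 in sh-Lin41. Of all genes tested, 28.3% were called in each direction in sh-Pfkp, and 26.9% and 27.3% in sh-Lin41. No count over divergent pairs of other genes is given here. Mrps11 and Mrpl46 are a pair of members 42 bases apart, with log2 fold changes of 0.33 and 0.17 in sh-Pfkp. Mrpl43 and Mrps27, which fell in sh-Pfkp, face Twnk and Ptcd2, which had 0.16 and 0.17. Mrpl18 fell in sh-Lin41 with its neighbour Tcp1, which had -0.20. Mrpl43 shares 33.4% of its exon bases with Twnk, Mrpl46 12.2% with Mrps11 and Mrpl18 10.1% with Tcp1, and reads there cannot be told apart.

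Genes that act on the mitochondrial ribosome were called in both directions. The shares of all genes to set beside these lists are 28.3% higher and 28.3% lower in sh-Pfkp, and 26.9% and 27.3% in sh-Lin41. Of 5 further ribosomal proteins with other names 1 rose and none fell in each knockdown, in both cases Ptcd3, with 0.30 (SE 0.0281, adjusted p = 1.38e-10) in sh-Pfkp and 0.14 in sh-Lin41. Of 27 assembly factors, 11 rose and 4 fell in sh-Pfkp, and 6 rose and 6 fell in sh-Lin41. The assembly factors called higher were 40.7% of their list in sh-Pfkp and 22.2% in sh-Lin41. Fastkd2, which binds the large ribosomal RNA, had 0.62 (SE 0.0368, adjusted p = 1.86e-15) and 0.29. Mrm3, a methyltransferase of that RNA, had 0.63 in sh-Pfkp, and Mettl17, for small-subunit assembly, 0.54. Tfb1m, which methylates the small-subunit RNA, had 0.50 in sh-Lin41, and Dhx30, an RNA helicase, -0.20.

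Of 18 translation factors and mRNA partners, 6 rose and 2 fell in sh-Pfkp, and 4 rose and 5 fell in sh-Lin41. The shares called higher, 33.3% and 22.2%, are near those of all genes. The enzymes that act on the first residue of mitochondrial proteins were low but rose most. Metap1d went from 3.90 ± 0.308 CPM in sh-ctrl to 8.38 ± 0.540 in sh-Pfkp and 8.86 ± 0.556 in sh-Lin41. Pdf, the deformylase, had 1.02 (SE 0.177, adjusted p = 1.1e-05) and 0.69 (SE 0.182, adjusted p = 0.00178). Lrpprc, which stabilises mitochondrial mRNA, had 0.27 and 0.11, and Gfm2, a recycling factor, -0.22 and -0.12. Of 17 mitochondrial tRNA synthetases 8 rose and 2 fell in each knockdown. Mars2 had 0.40 and 0.43, Cars2 0.32 and 0.46, and Hars2 0.46 in sh-Lin41.

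The templates of this ribosome, the 13 mRNAs of mitochondrial DNA, were higher in both knockdowns. In sh-Pfkp 12 rose and none fell, and in sh-Lin41 all 13 rose, with median log2 fold changes of 0.46 and 0.48. They were 5.15 to 5.32% of counts in sh-ctrl, 6.65 to 6.86% in sh-Pfkp and 7.19 to 7.43% in sh-Lin41, with no overlap. mt-Cytb, of respiratory complex III, had 0.55 and 0.71, and mt-Nd4, of complex I, 0.62 and 0.47. The ribosomal RNAs of mitochondrial DNA were not analysed here. Among 13 nuclear genes for copying and transcribing that DNA, 5 rose and 2 fell in sh-Pfkp, and 2 rose and 3 fell in sh-Lin41. Those are 38.5% and 15.4% in sh-Pfkp, where 28.3% of all genes were called in each direction. In sh-Lin41 they are 15.4% and 23.1%, where 26.9% and 27.3% of all genes were. Tfb2m, needed to start transcription, had 0.55 and 0.53, and Ssbp1, which coats single strands, -0.11 and -0.35.

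Other abundant mitochondrial proteins, taken as a view of content, gave 7 higher and 2 lower of 16 in sh-Pfkp, and 2 higher and 12 lower in sh-Lin41. Slc25a4, the ADP and ATP carrier, had 0.20 (SE 0.0259, adjusted p = 7.4e-08) in sh-Pfkp and -0.33 (SE 0.0270, adjusted p = 3.68e-12) in sh-Lin41. Tomm40, the pore of the outer membrane, had -0.16 and -0.50, and the chaperonin Hspd1 -0.31 in sh-Lin41. The cytosolic ribosomal proteins, a list added after values were seen, gave 9 higher and 47 lower of 83 in sh-Pfkp and 23 higher and 31 lower in sh-Lin41, with medians of -0.08 and -0.02. Their shares were 10.8% and 56.6% in sh-Pfkp, and 27.7% and 37.3% in sh-Lin41. For the 16 content genes they were 43.8% and 12.5%, and 12.5% and 75%. All genes gave 28.3% in each direction in sh-Pfkp, and 26.9% and 27.3% in sh-Lin41.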

How the data were processed

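RNA-seq of 9 libraries, 3 per hairpin group, was analysed from the deposited gene tables. Whole-number read counts per gene and FPKM per library were deposited side by side, per the file headers. The notes name RSEM, so the authors' counts may be rounded estimates. The authors' tables also hold a log2 ratio and a p-value with FDR per gene, per the file headers, which were read only as a check. No member is in either filtered table that the authors deposited (923 and 473 genes), and none had an absolute log2 ratio over 1. At the authors' FDR under 0.05, 31 members were higher and 1 lower in sh-Pfkp, and 7 and 12 in sh-Lin41. All genes gave 3371 and 3169, and 2709 and 2806. The sign was opposite to edgeR in 12 members in sh-Pfkp and 2 in sh-Lin41, none of them called here. Tools listed in the submitters' processing notes are RSEM, HISAT2, StringTie 1.3.1, Bowtie2 2.2.8 and fastp 0.18.0. Build, annotation and strand setting were not given in the sources used here.

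Both tables held the same control values. Counts were fitted together with edgeR 4.0.16 in R 4.3.3 (filterByExpr, TMM, quasi-likelihood test, 6 residual degrees of freedom), with Benjamini-Hochberg adjustment over the 13158 genes tested and a threshold of 0.05. SE is the log2 fold change over the square root of F. A gene called higher or lower passed that threshold. The fit was tested on simulated data. Depth limits precision: the median SE of members was 0.0568 in log2, from 0.0302 to 0.125, in sh-Pfkp.

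The members and gene lists were chosen with earlier results of these data known. The text names, per knockdown, up to 10 called members in each direction by size among groups that do not overlap, up to 6 between the knockdowns, the 5 highest and 5 lowest by FPKM, the stalk, tunnel exit, S18 and decoding genes and Mrps36, and up to 3 called genes per related list. Genes of the joint counts outside that rule, and the promoters and neighbours shown, were chosen after their values were seen. Alternatives were DESeq2 1.42.0, limma-voom and limma-trend (limma 3.58.1) on log2(FPKM + 1), other scalings and filters, fits of 6 libraries, a replicate block and the omission of each library.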

Additional observations from a re-analysis of the deposited data

How the results depend on the processing

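Among the genes named above and the counts of calls, none of the alternatives run reversed a called direction. The median log2 fold change of the 78 genes lay between 0.0528 and 0.132 in sh-Pfkp against sh-ctrl, between -0.0152 and 0.0215 in sh-Lin41 against sh-ctrl, and between 0.0623 and 0.135 between the knockdowns, over 20 settings. Called in all of them and in the reported fit were 22 genes higher and 1 lower in sh-Pfkp, 6 higher and 12 lower in sh-Lin41, and 28 higher and 1 lower between the knockdowns.

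The counts of lower genes are small, and moved most as a ratio. In sh-Pfkp, 3 lower genes became 6 with limma-trend on FPKM and 1 with DESeq2. Between the knockdowns, 4 became 8 with upper quartile scaling, 8 with total count scaling, 7 with limma-trend and 1 with DESeq2. In sh-Lin41, DESeq2 gave 7 higher and 13 lower, against 15 and 20. The cause was not tested.

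Leaving out 1 library gave 29 to 34 higher and 1 to 3 lower in sh-Pfkp, with 1 lower without sh-ctrl replicate 1 or sh-Pfkp replicate 1. In sh-Lin41 it gave 9 to 16 higher and 14 to 21 lower. Between the knockdowns it gave 35 to 40 higher and 1 to 4 lower, with 2 lower without sh-Pfkp replicate 1 or sh-Lin41 replicate 1 and 1 without sh-Lin41 replicate 3.

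With the replicate number as a block, sh-Pfkp gave 33 higher and 3 lower, sh-Lin41 15 and 19, and the knockdowns set against each other 39 and 3. With only the 6 libraries of each comparison and the block, a setting chosen after seeing the data, the counts were 32 and 3, 17 and 22, and 39 and 3. Same-numbered libraries deviated together with r between -0.083 and 0.125 across genes, and differently numbered ones with r between -0.111 and 0.0984. Between sh-ctrl and sh-Pfkp, replicates 2 and 3 had 0.125 and 0.0887 with the same number, and -0.111 and -0.102 when crossed. Replicate 1 had 7.26e-05 there, and same-numbered r with sh-Lin41 libraries ran from -0.083 to 0.0101. The numbers were not taken to pair the libraries. Most members' changes are small for this depth and 3 libraries a group, so a member not called may still differ: the largest uncalled change was 0.16 in log2 in sh-Pfkp and 0.20 in sh-Lin41. The smallest called changes of members were 0.09 in log2 in sh-Pfkp and 0.08 in sh-Lin41.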

Other observations

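Length and base composition were set beside the members' changes. Across the 78 genes, Spearman's rho between the log2 fold change in sh-Pfkp and the length of the longest transcript was 0.0485, and that with its GC content 0.0293. These are descriptions across genes of the same libraries, and genes are not independent replicates. Across 13144 of the genes tested, rho with GC content was -0.236 in sh-Pfkp and -0.164 in sh-Lin41. The members' median GC content was 49.8%, against 49.9% for all genes tested, and their median longest transcript was 1866.5 bases against 3432.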
